A study of Homo sapiens with 12 samples.

Results

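The genes described are 9 haematopoietic cytokine and growth factor receptors: IL5RA, IL3RA, CSF2RA, CSF2RB, CSF3R, IL6R, CSF1R, KIT and FLT3. They were picked out by gene symbol, from a set drawn up with earlier results of these data known, and they are 9 of the 60240 genes in the deposited table. Each symbol had a single row. All 9 were among the 16152 genes tested, which reached a normalised count of 10 in at least 2 libraries. IL5RA passed only through decitabine libraries of 72 and 120 h, since 1 of the 5 DMSO libraries reached 10.

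The study followed HL-60, a human cell line established from promyelocytic leukaemia and labelled as wild type, during exposure to decitabine, a cytidine analogue that enters DNA and traps DNA methyltransferases. Decitabine was given to 100 nM at 0 h and again at 24 and 48 h, and control cells received DMSO. RNA was collected 6, 72 and 120 h after the start from wells seeded in duplicate at 100000 cells per mL. The 6 h samples thus came before the doses of 24 and 48 h. The labels describe 6 groups of 2 samples, and values for 11 libraries were used: 1 of DMSO at 72 h and 2 of each other group. All samples were wells of the same line, and nothing in the labels says that the wells came from separate cultures. The p-values therefore describe how far these wells differed, a spread that could be technical.

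Cytokine receptors of the haematopoietic class I family have no kinase of their own and signal through JAK kinases, which phosphorylate STAT proteins. The receptors for interleukin-5, interleukin-3 and GM-CSF each pair a ligand-specific alpha chain (IL5RA, IL3RA or CSF2RA) with the same signalling chain, the common beta chain CSF2RB. CSF1R, KIT and FLT3 are receptor tyrosine kinases of class III, whose ligands guide macrophages, mast cells and stem cells, and early progenitors respectively.

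The most common positive value of a library, 0.407 to 0.961 normalised counts, was assumed to be worth 1 count. On that assumption the estimated depth was 14427331 to 32908419 counts per library. The pair of decitabine libraries at 72 h differed from each other by a median absolute log2 difference of 0.59 over the tested genes, against 0.19 to 0.26 in the other pairs. The transcript FP671120.7 took 3.89 to 10.9% of the normalised total in the 4 libraries of 120 h, in both treatments, and 5.25% in decitabine 72 h replicate 1, against at most 0.794% in the other 6. Its part in the results was not tested. The labelled cell type was checked with 6 promyelocyte genes (MPO, ELANE, PRTN3, AZU1, CTSG and CD33), whose summed level was 89803 to 185207 normalised counts in every library and of which 0 were called at 72 or 120 h; without either decitabine 72 h library 1 was higher and 1 lower at 120 h. MPO made up most of the promyelocyte sum, which therefore says little of the other genes. At 120 h, 1 of the 6 promyelocyte genes had a positive log2 fold change. ELANE was 771 and 909 with DMSO and 368 and 397 with decitabine at 120 h. CD34, PROM1 and THY1, markers of stem and progenitor cells, were under 10 in every library.

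IL5RA, CSF2RB, CSF2RA and CSF1R rose with decitabine at 120 h, and IL5RA had also risen at 72 h. A gene was called at a Benjamini-Hochberg adjusted p under 0.05 in limma. By that rule 4 of the 9 receptors were called at 120 h, all higher, where 15.9% of all tested genes were called (9.91% higher and 6.0% lower). IL5RA, 1 of these 4, had passed the filter only through decitabine libraries of 72 and 120 h and could hardly be called lower. At 72 h 1 of 9 was called, against 2.19% of all tested genes (1.88% higher and 0.31% lower). At 6 h 0 of 9 and 0 of all 16152 genes were called, while 541 genes had an unadjusted p under 0.05. Without a mean-variance trend limma called 3 genes at 6 h, and using only the 6 h libraries for the spread it called 1; neither was a receptor. The share of called genes that were higher depended on the scaling. At 72 h it was 85.8% as deposited, 74.5% after quantile normalisation and 68.4% with equal library totals, and at 120 h these shares were 62.3%, 50.8% and 73.0%.

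**Figure D1:**
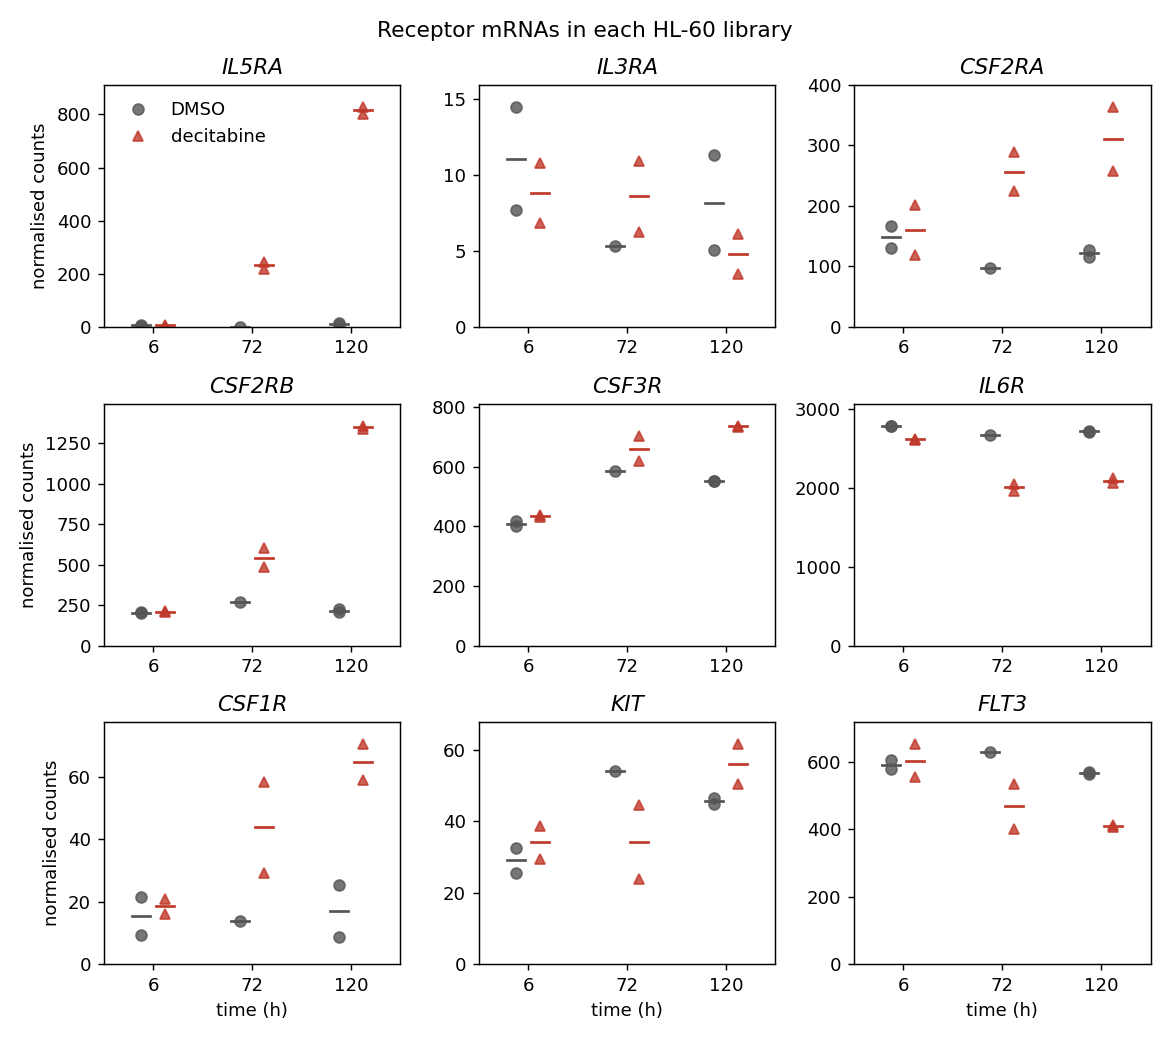
Normalised counts (vertical axes, linear from 0) of the 9 receptor genes in each of the 11 libraries, by time in hours and treatment. Each point is 1 library and each short line a group mean; IL5RA lies at 1.26 to 13.2 in the 7 DMSO and 6 h libraries and at 218 to 828 in the 4 later decitabine libraries.

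IL5RA encodes the alpha chain that gives the interleukin-5 receptor its ligand specificity and is known from eosinophils and basophils. GENCODE 29 places it on GRCh38 chromosome 3, 3066326 to 3126613, on the minus strand. The sequence before its RefSeq start is shown because IL5RA had the largest change of the 9 receptors. It runs from 250 to 31 bases before the start (GRCh38.p14, chr3:3110405-3110624, minus strand), with CpG dinucleotides, the sites that DNA methyltransferases modify, in capitals.
IL5RA: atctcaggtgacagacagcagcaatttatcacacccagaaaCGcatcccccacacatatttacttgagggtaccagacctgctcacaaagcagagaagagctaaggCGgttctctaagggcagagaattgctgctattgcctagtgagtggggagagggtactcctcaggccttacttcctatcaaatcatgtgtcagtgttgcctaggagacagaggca
The 250 bases before the start held 2 CpG, and 22.8% of the 34961 RefSeq promoter windows of the same length held 2 or fewer. This start lies inside the GENCODE 29 gene, which extends upstream of it to 3126613. The bases just after it were held by 5 GENCODE 29 transcripts. Which start is used in HL-60 cells was not measured.

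In DMSO cells the IL5RA level was 8.63 and 4.01 normalised counts at 6 h, 1.26 at 72 h, and 13.2 and 7.32 at 120 h. In decitabine cells it was 4.05 and 8.19 at 6 h, 244 and 218 at 72 h, and 802 and 828 at 120 h. The early decitabine libraries thus lay among the DMSO libraries, and all 4 later ones lay far above every other library. At 120 h the mean was 815 ± 18.8 (SD, n = 2) with decitabine and 10.2 ± 4.12 (SD, n = 2) with DMSO, a 79.6-fold ratio of means. The log2 fold change of value plus 1 was 6.23 (SE 0.448, limma adjusted p = 0.000139), with a 95% interval of the fold from 37.0 to 153 on that scale. IL5RA ranked 26th highest of 16152 genes by log2 fold change at 120 h and 15th at 72 h.

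At 72 h the single DMSO library held an estimated 2.5 counts of IL5RA. By normalised values, the ratio of replicate 1 to it was 193 and that of replicate 2 was 173. For the intervals, estimated counts were rounded to 3 for DMSO and to 353 and 316 for decitabine. The exact 95% intervals were 55.5 to 796 for replicate 1 and 49.5 to 712 for replicate 2. These intervals cover counting error only, and they rest on the assumed worth of 1 count. The log2 fold change at 72 h was 6.68 (SE 0.549, limma adjusted p = 0.00162), with the lone DMSO library assumed to vary like the other groups. The call was lost when the spread came from the 72 h libraries alone, which leaves 1 residual degree of freedom (adjusted p = 0.474). Between 72 and 120 h of decitabine the IL5RA level differed by 1.82 on the log2 scale (adjusted p = 0.178), which was not called.

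The exons of IL5RA overlap those of CNTN4-AS1 on the same strand, so their reads could be divided between both genes. CNTN4-AS1 was listed at 0 in 10 libraries and at 1.38 in decitabine 120 h replicate 2.

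CSF2RB encodes the common beta chain, the signalling subunit shared by the interleukin-5, interleukin-3 and GM-CSF receptors (GRCh38 chromosome 22, 36913628 to 36940449, plus strand). Its level in DMSO cells was 205 and 199 normalised counts at 6 h, 270.1 at 72 h, and 208 and 224 at 120 h. In decitabine cells it was 212 and 208 at 6 h, 601 and 485 at 72 h, and 1337 and 1359 at 120 h. The 4 later decitabine libraries did not overlap any other library, and those of 120 h were above those of 72 h. At 120 h the means were 1348 ± 15.5 (SD, n = 2) with decitabine and 216 ± 11.2 (SD, n = 2) with DMSO, a 6.24-fold ratio, and the log2 fold change was 2.64 (SE 0.168, limma adjusted p = 8.84e-05).

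CSF2RB at 72 h had a log2 fold change of 1.00 (SE 0.206) and missed the threshold (adjusted p = 0.0506). It was called there under 6 of 21 alternatives (adjusted p from 0.00125 to 0.996 over all 21). It was also the 1 receptor called between decitabine at 72 and 120 h, a comparison that called 0.13% of all genes (0.124% higher and 0.00619% lower). Its log2 difference was 1.32 (limma adjusted p = 0.0401). That count of 1 became 0 in 12 of 20 alternatives and 2 without decitabine 72 h replicate 1.

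The distance between IL5RA and CSF2RB was also read within each library, on the log2(value + 1) scale and not per length. In the 7 DMSO and 6 h libraries IL5RA was lower than CSF2RB by a log2 difference of -6.90 to -3.88. The difference was -1.30 and -1.15 in the decitabine libraries of 72 h and -0.74 and -0.71 in those of 120 h. For CSF2RA against CSF2RB the same measure was -1.46 to -0.07 in the 7 DMSO and 6 h libraries. With decitabine it was -1.42 and -0.74 at 72 h, within that range, and -1.88 and -2.40 at 120 h, below it. These are descriptions without a test.

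CSF2RA encodes the alpha chain of the GM-CSF receptor and lies with IL3RA in the pseudoautosomal region (chromosome X, 1268800 to 1310381, plus strand). An identical copy on the other sex chromosome is annotated and the table has 1 row for both, so its counting is uncertain. Its RefSeq promoter is shown as that of the other called alpha chain (GRCh38.p14, chrX:1268564-1268783, plus strand, 250 to 31 bases before the start, CpG in capitals).
CSF2RA: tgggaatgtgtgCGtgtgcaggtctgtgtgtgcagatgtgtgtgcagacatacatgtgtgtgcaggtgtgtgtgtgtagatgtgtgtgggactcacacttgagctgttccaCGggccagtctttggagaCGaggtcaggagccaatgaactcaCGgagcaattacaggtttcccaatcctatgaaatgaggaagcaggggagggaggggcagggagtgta
The 250 bases held 4 CpG, and 34.3% of windows held 4 or fewer.

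The CSF2RA level in DMSO cells was 167 and 130.3 normalised counts at 6 h, 97.8 at 72 h, and 128 and 116 at 120 h. In decitabine cells it was 202 and 118 at 6 h, 224 and 289 at 72 h, and 364 and 257 at 120 h. All 4 later decitabine libraries were above the 7 others, although decitabine 6 h replicate 1 came close to the lowest of them. The 120 h means were 310.4 ± 75.3 (SD, n = 2) and 122 ± 8.33 (SD, n = 2), a 2.55-fold ratio. The log2 fold change was 1.32 (SE 0.306, limma adjusted p = 0.0215). The call was lost when any 1 of the 4 libraries of 120 h was left out (adjusted p 0.0584 to 0.159) and without the filter on low values (adjusted p = 0.0558).

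IL3RA encodes the alpha chain of the interleukin-3 receptor (chromosome X, 1336616 to 1382689, plus strand; its counting is uncertain for the same reason). Its level was low throughout, from 3.50 normalised counts in decitabine 120 h replicate 1 to 14.5 in DMSO 6 h replicate 2. At 120 h it was 11.3 and 5.03 with DMSO and 3.50 and 6.12 with decitabine, and these libraries overlapped. The log2 fold change was -0.61 (SE 0.581, limma adjusted p = 0.539), with a 95% interval of -1.93 to 0.72. No difference was detectable at this depth, where its libraries held an estimated 4.7 to 26.6 counts. Of the 3 alpha chains, IL5RA and CSF2RA were thus called at 120 h and IL3RA was not. Differences between the genes were not tested.

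CSF3R encodes the G-CSF receptor, which supports neutrophil production (chromosome 1, 36466043 to 36483278, minus strand). Its level in DMSO cells was 401 and 416 normalised counts at 6 h, 587 at 72 h, and 553 and 552 at 120 h. With decitabine the level was 437 and 432 at 6 h, 702 and 617 at 72 h, and 732 and 737 at 120 h. The later decitabine libraries were above all others, but the DMSO libraries of 72 and 120 h were themselves above those of 6 h. At 120 h the ratio was 1.33-fold and the log2 fold change 0.41 (SE 0.148, 95% interval 0.07 to 0.75), which was not called (limma adjusted p = 0.0993). At 72 h the log2 fold change was 0.17, and with equal library totals it was -0.03.

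IL6R encodes the ligand-binding chain of the interleukin-6 receptor (chromosome 1, 154405193 to 154469450, plus strand). It varied little in DMSO cells, with 2782 and 2791 normalised counts at 6 h, 2674 at 72 h, and 2713 and 2724 at 120 h. With decitabine its level was 2621 and 2612 at 6 h, 1965 and 2050.4 at 72 h, and 2059 and 2124 at 120 h. The 4 later decitabine libraries lay below the 7 others. The log2 fold change was -0.41 at 72 h (limma adjusted p = 0.228) and -0.38 at 120 h (SE 0.131, 95% interval -0.68 to -0.08, adjusted p = 0.0892), neither of which was called.

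CSF1R encodes the receptor for the macrophage growth factors CSF1 and interleukin-34 (chromosome 5, 150053291 to 150113372, minus strand). RefSeq gives 2 promoter windows for it, and the inner one, which held fewer CpG, is shown because CSF1R was among the called receptors (GRCh38.p14, chr5:150086585-150086804, minus strand, 250 to 31 bases before the start, CpG in capitals).
CSF1R: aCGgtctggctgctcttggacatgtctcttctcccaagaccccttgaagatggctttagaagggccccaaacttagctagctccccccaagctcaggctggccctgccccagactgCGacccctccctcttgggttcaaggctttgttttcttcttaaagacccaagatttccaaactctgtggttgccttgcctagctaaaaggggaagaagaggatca
This window of 250 bases held 2 CpG and the outer one 6. Which start is used in HL-60 cells was not measured.

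The CSF1R level in DMSO cells was 9.48 and 21.5 normalised counts at 6 h, 13.9 at 72 h, and 25.3 and 8.59 at 120 h. In decitabine cells it was 21.0 and 16 at 6 h, 58.4 and 29.1 at 72 h, and 70.4 and 58.9 at 120 h. The 4 later decitabine libraries exceeded the 7 others, by a narrow margin for 72 h replicate 2. The 120 h means were 64.6 ± 8.15 (SD, n = 2) and 16.9 ± 11.8 (SD, n = 2), a 3.82-fold ratio, and the log2 fold change was 2.04 (SE 0.585, limma adjusted p = 0.0483). This call is close to the threshold and was lost under 14 of 21 alternatives (adjusted p 0.0135 to 0.254), including the fit with a replicate block (adjusted p = 0.0521). Leaving out DMSO 120 h replicate 2 gave a log2 fold change of 1.32 (adjusted p = 0.254), and leaving out DMSO 120 h replicate 1 gave 2.77 (adjusted p = 0.0392).

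KIT encodes the stem cell factor receptor (chromosome 4, 54657918 to 54740715, plus strand). Its level in DMSO cells was 32.6 and 25.4 normalised counts at 6 h, 54.0 at 72 h, and 44.9 and 46.6 at 120 h. Decitabine cells had 38.8 and 29.4 at 6 h, 23.9 and 44.6 at 72 h, and 50.4 and 61.5 at 120 h. The decitabine libraries were below the lone DMSO library at 72 h and above both DMSO libraries at 120 h, and over all times the libraries overlapped. KIT had a log2 fold change of -0.71 at 72 h (limma adjusted p = 0.425) and of 0.28 at 120 h (95% interval -0.52 to 1.08, adjusted p = 0.65). After quantile normalisation the 120 h value was -0.08.

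FLT3 encodes the receptor for FLT3 ligand, often mutated in acute myeloid leukaemia (chromosome 13, 28003274 to 28100592, minus strand). Its promoter is shown as the CpG-rich contrast to IL5RA (GRCh38.p14, chr13:28100607-28100826, minus strand, 250 to 31 bases before the start, CpG in capitals).
FLT3: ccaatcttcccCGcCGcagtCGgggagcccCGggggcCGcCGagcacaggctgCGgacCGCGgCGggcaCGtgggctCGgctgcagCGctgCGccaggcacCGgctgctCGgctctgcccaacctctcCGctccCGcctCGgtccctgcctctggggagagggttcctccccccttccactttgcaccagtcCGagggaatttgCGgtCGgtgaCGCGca
The 250 bases held 26 CpG, and 82.3% of windows held 26 or fewer.

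The FLT3 level in DMSO cells was 605 and 579.5 normalised counts at 6 h, 630.3 at 72 h, and 565 and 569 at 120 h. Decitabine cells had 652 and 555 at 6 h, 536 and 401 at 72 h, and 414 and 407 at 120 h. The 4 later decitabine libraries lay below the 7 others. FLT3 had a log2 fold change of -0.44 at 72 h (limma adjusted p = 0.334) and -0.46 at 120 h (SE 0.183, 95% interval -0.88 to -0.04, adjusted p = 0.129), and neither was called.

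CSF3R, IL6R and FLT3 therefore had 120 h intervals that excluded 0 before adjustment but were not called over all genes. Each was called at 120 h under 4 of 21 alternatives: with limma sample weights, with the spread taken at 120 h only, and without either decitabine 72 h library. In the last of these the 72 h pair, which differed most within itself, no longer adds to the shared spread, and 7 of the 9 receptors were called, where 30.9% of all genes were called without replicate 1 and 31% without replicate 2. At 6 h decitabine and DMSO libraries did not overlap for CSF2RB and CSF3R (above DMSO, as for 18.2% of all genes) and for IL6R (below, 20.8%). At 72 h 6 receptors lay above DMSO (37.5% of all genes) and 3 below (27.6%), and at 120 h 6 lay above (36.1%) and 2 below (30.6%). Across both late times, 5 receptors (IL5RA, CSF2RA, CSF2RB, CSF3R and CSF1R) had all 4 decitabine libraries above the 7 others, as had 12.7% of all tested genes. IL6R and FLT3 had all 4 below, as had 8.92% of all genes, and IL3RA and KIT overlapped. In bulk RNA, a lower level per cell and fewer cells of the type that expresses a gene cannot be told apart, and the same holds for a higher level.

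**Figure D2:**
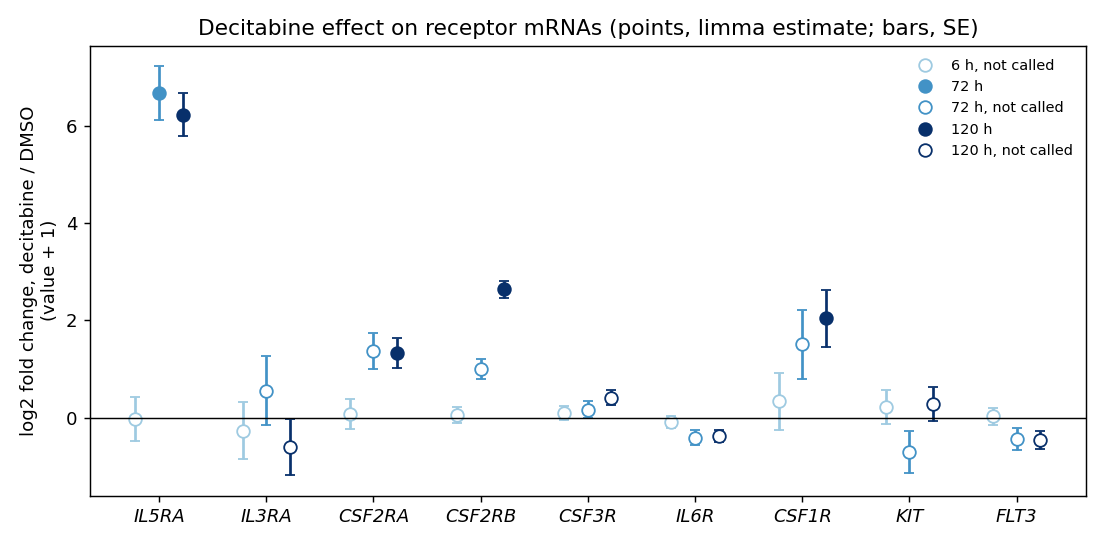
Log2 fold change of value plus 1, decitabine against DMSO, for each receptor at 6, 72 and 120 h, with the SE from limma as bars and filled points where the gene was called. IL5RA lies at 6.68 and 6.23 at the later times, and all 9 receptors lie between -0.27 and 0.33 at 6 h.

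Whether the decitabine effect differed between times was tested with interaction terms of the same model. The 6 h samples preceded the doses of 24 and 48 h. In comparisons with 6 h, time and number of doses therefore cannot be told apart. The effect on IL5RA at 72 h exceeded that at 6 h by 6.70 on the log2 scale (SE 0.708, limma adjusted p = 0.0128), the 1 of 9 receptors called where 0.613% of all genes were (0.557% higher and 0.0557% lower). At 120 h against 6 h IL5RA differed by 6.26 (SE 0.634, adjusted p = 0.0020) and CSF2RB by 2.58 (SE 0.238, adjusted p = 0.00148), 2 of 9 against 5.9% of all genes (4.27% higher and 1.63% lower). Between 120 and 72 h limma called 0 of all genes, with 1022 at an unadjusted p under 0.05, and 1 without the trend. The largest difference among the receptors there was that of CSF2RB, 1.64 (adjusted p = 0.276). These comparisons share libraries, so they are not independent. IL5RA passed the filter only through decitabine libraries of 72 and 120 h and could hardly be called lower here. Its 72 h effect rests on 1 DMSO library, with an estimated 2.5 counts. In DMSO cells alone, limma called 0 of all 16152 genes, and so 0 receptors, at 72 or 120 h against 6 h, with 456 and 865 genes at an unadjusted p under 0.05.

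Levels between genes were compared per kb of merged GENCODE 29 exon, in normalised counts per kb. In DMSO cells at 120 h the order was IL6R 421, FLT3 136, CSF3R 65.5, CSF2RB 43.2, CSF2RA 31.8, KIT 8.23, IL3RA 4.78, CSF1R 3.29 and IL5RA 1.55. The neighbours IL3RA and CSF1R (SD 2.60 and 2.29), and likewise CSF1R and IL5RA (SD 0.625), did not differ beyond their spread (n = 2 each). With decitabine at 120 h the order was IL6R 324, CSF2RB 269.5, IL5RA 123, FLT3 98.8, CSF3R 87.2, CSF2RA 81.0, CSF1R 12.5, KIT 10.1 and IL3RA 2.81. CSF2RB and IL5RA thus moved from the fourth and the last place to the second and the third, while CSF3R and CSF2RA (SD 19.7) did not differ beyond their spread. CSF1R (SD 1.58) and KIT (SD 1.41) lay farther apart than either SD, a gap that was not tested (n = 2 each).

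Promoter windows were found for 8 of the 9 receptors, 10 windows in all. KIT held 34 CpG and IL6R 22, against a median of 11 over all windows, while IL3RA held 4 and the 2 windows of CSF3R held 3 and 8. The called receptors with a window (IL5RA, CSF2RA and CSF1R) held 2 to 6 CpG, but so did IL3RA and 1 window of CSF3R, neither of which was called. IL3RA was low throughout, and no difference was detectable there. For that CSF3R window, 0 GENCODE 29 transcripts held the bases just after its start, against 4 for the window with 8 CpG. DNA methylation and the starts used in HL-60 cells were not measured here. Motifs were searched on both strands, and a match is a description and not a site. GATA motifs (the letters AGATAA or else AGATAG, and likewise TGATAA or else TGATAG) occurred in 22.3% of all windows. IL5RA held 2, at positions 26 and 180 from the 5′ end of the window printed above, and IL3RA and the outer CSF1R window held 1 each. The PU.1 core (GAGGAA) occurred in 23.6% of windows: CSF2RA, IL6R and the inner CSF1R window held 2 (both CSF1R matches and 1 of CSF2RA in the last 30 bases, which are not printed), and FLT3 and 1 CSF3R window held 1. The RUNX motif (TGTGGT, 11% of windows) was matched once, in the inner CSF1R window. C/EBP (TTGCNNAA, 9.04%) was matched in IL3RA and the other CSF3R window, and the STAT motif (TTCNNNGAA, 6.57%) was matched 2 times in IL3RA.

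The genes whose log2 levels followed each receptor most closely over the 11 libraries were listed by Pearson r, as a description in libraries that share treatment and depth. For IL5RA they were KCNH2 (0.991), CD68 (0.990) and AC010680.2 (0.985), and for CSF2RB they were LIMS1, FUCA1 and TLR8 (0.994 each). CSF2RA was followed by GABARAPL1 (0.969), AC116353.5 (0.95) and ARHGEF11 (0.946), and CSF1R by REPS2 (0.969), PPP4R1L (0.967) and CATSPER1 (0.959). CSF3R was closest to ABCA1 (0.995), STX5 (0.960) and IFITM2 (0.958). IL6R was closest to MRPS30 (0.981), BEX1 (0.978) and LRRC58 (0.977), and FLT3 to DBR1 (0.974), CYB5A (0.973) and ZNF22 (0.971). The closest genes were less alike for KIT, with CCNL1 (0.932), AC090559.1 (0.890) and KLC4 (0.884), and for IL3RA, with EAF1-AS1 (0.903), C17orf113 (0.872) and USP54 (0.857). Among the receptors themselves r was 0.933 between IL5RA and CSF2RB and 0.872 between IL5RA and CSF2RA, while IL5RA ran opposite to IL6R (-0.922) and FLT3 (-0.904).

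Most ligands of these receptors were low. Of 9 ligand genes, 2 were tested and 0 were called at any time. CSF2, IL6 and IL34 were listed at 0 in every library, and IL5, IL3 and CSF3 stayed under 10. CSF1, the ligand of CSF1R, reached 23.8 normalised counts in decitabine 120 h replicate 1 and was at most 8.11 in the other libraries. KITLG, the ligand of KIT, was 3.21 and 6.15 with DMSO and 15.2 and 14.7 with decitabine at 120 h (log2 fold change 1.54, limma adjusted p = 0.0902). At 72 h KITLG was 6.86 with DMSO and 23.8 and 62.5 with decitabine (log2 fold change 2.34, adjusted p = 0.115). FLT3LG was 13.9 and 8.2 with DMSO and 5.63 and 9.59 with decitabine at 120 h (log2 fold change -0.48, adjusted p = 0.526).

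Some other cytokine receptors rose as well. Of 37 listed genes 29 were tested, and 10 were higher and 0 lower at 120 h, with a median log2 fold change of 0.87 against 0.07 over all tested genes. Over all tested genes 9.91% were higher and 6.0% lower at 120 h, which is the background for this and the following lists. Of the 29, 6 had passed the filter only through decitabine libraries of 72 and 120 h and could hardly be called lower, and 3 of these (IL1RL1, IL1R1 and IL1R2) were among the 10. At 72 h 4 were higher and 0 lower. Without decitabine 120 h replicate 2, 6 were higher at 120 h. The largest change was that of IL1RL1, the interleukin-33 receptor known from mast cells and eosinophils. It was 2.12 and 4.14 with DMSO and 492 and 477 with decitabine at 120 h (log2 fold change 6.92, SE 0.469, limma adjusted p = 0.000106). IL1R1, the signalling interleukin-1 receptor, had a log2 fold change of 5.18 (adjusted p = 0.000436), IL9R one of 4.68 (adjusted p = 0.0176) and IL18R1 one of 3.37 (adjusted p = 0.00596). IL9R was 118 and 16.7 in the decitabine libraries of 72 h, a wide gap between replicates. IL6ST, the signalling partner of IL6R, ranged from 50.8 to 997 and differed as much within groups as between them, with 997 and 181 in the decitabine libraries of 120 h (log2 fold change -0.27, adjusted p = 0.893).

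Of the JAK and STAT genes, 9 of 11 were tested, and 3 were higher and 0 lower at 120 h (median 0.67). STAT5A, a main STAT of the beta-chain receptors, was 58.3 and 69.9 with DMSO and 133 and 148 with decitabine (log2 fold change 1.12, limma adjusted p = 0.023). STAT5B was 440.0 and 370.1 with DMSO and 769 and 939 with decitabine (log2 fold change 1.07, adjusted p = 0.0107). JAK2, the kinase bound to CSF2RB, was 426 and 605 with DMSO and 1087 and 903 with decitabine (log2 fold change 0.96, adjusted p = 0.045). JAK1 (log2 fold change 0.31, adjusted p = 0.801) and STAT3 (0.67, adjusted p = 0.18) were not called. At 72 h 0 of the 9 were called. Leaving out 1 of the 4 libraries of 120 h left 0, 0, 1 or 2 of the list called: 0 without DMSO replicate 2 or decitabine replicate 2, 1 without decitabine replicate 1 and 2 without DMSO replicate 1.

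Among 16 adaptors and cytoplasmic kinases, all tested, 5 were higher and 0 lower at 120 h (median 0.43). Among them were the SRC-family kinases FGR (log2 fold change 2.60, limma adjusted p = 0.000922) and LYN (0.86, adjusted p = 0.0137), the adaptor GAB2 (0.78, adjusted p = 0.0182) and the kinase SYK. Of 18 negative regulators 16 were tested, and 3 were higher and 0 lower (median 0.18). Of all tested genes 15.9% were called (9.91% higher and 6.0% lower), and so small a count says little of the list. SOCS1, a feedback inhibitor of JAK kinases that passed the filter only through late decitabine libraries, was 2.94 and 1.48 with DMSO and 15.4 and 24.3 with decitabine (log2 fold change 2.71, adjusted p = 0.0389). The docking protein DOK2 (2.31, adjusted p = 0.00234) and SLA (1.12, adjusted p = 0.00208) were the others. With 1 library of 120 h left out, 2 or 3 of the adaptors and 2 of the negative regulators remained called in number.

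Of 9 genes known as STAT targets 8 were tested, and 4 were higher and 0 lower at 120 h (median 0.92). They were the repressor BCL6 (log2 fold change 2.48, limma adjusted p = 0.00374), the cyclins CCND3 (1.36, adjusted p = 0.0049) and CCND2 (0.71, adjusted p = 0.0179), and the kinase PIM1 (1.13, adjusted p = 0.0114). CCND2 was the 1 called at 72 h (0.94, adjusted p = 0.0492). Leaving out any 1 of the libraries of 120 h left 2 called. CISH, a target and inhibitor of STAT5, was 88.5 and 57.2 with DMSO and 54.6 and 50.6 with decitabine at 120 h and was not called (log2 fold change -0.43, adjusted p = 0.504; CISH was picked after its values were seen). The receptor-shedding proteases ADAM10 and ADAM17 were both tested and 0 were called.

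Of 16 myeloid transcription factors 13 were tested, and 3 were higher and 1 lower at 120 h, against 2 higher and 1 lower at 72 h. GATA1, a factor of eosinophil, mast cell, erythroid and megakaryocyte lineages, was listed at 0 in both DMSO libraries of 120 h and was 81.5 and 80.1 with decitabine (limma adjusted p = 0.00121), with 55.5 and 34.3 at 72 h. It passed the filter only through these libraries. GATA2, which acts in progenitors, mast cells and eosinophils, was 232 and 252 with DMSO and 897 and 893 with decitabine at 120 h (log2 fold change 1.88, adjusted p = 0.000516). CEBPE, a granulocyte factor, rose by 0.89 (adjusted p = 0.00501). IRF8, a factor of monocytes and dendritic cells, was 1030.1 and 1008 with DMSO and 176 and 191 with decitabine at 120 h, and fell by 2.47 on the log2 scale (adjusted p = 0.00012).

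Without either decitabine 72 h library, more genes of these lists were called higher at 120 h: 13 other cytokine receptors, 4 JAK and STAT genes, 8 adaptors and kinases, 4 negative regulators, 5 STAT targets, 6 myeloid factors, 1 ligand and both shedding proteases (2). Calls over all genes rose as well in those fits, from 9.91% higher to 15.9% without replicate 1 and 16% without replicate 2.

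**Figure D3:**
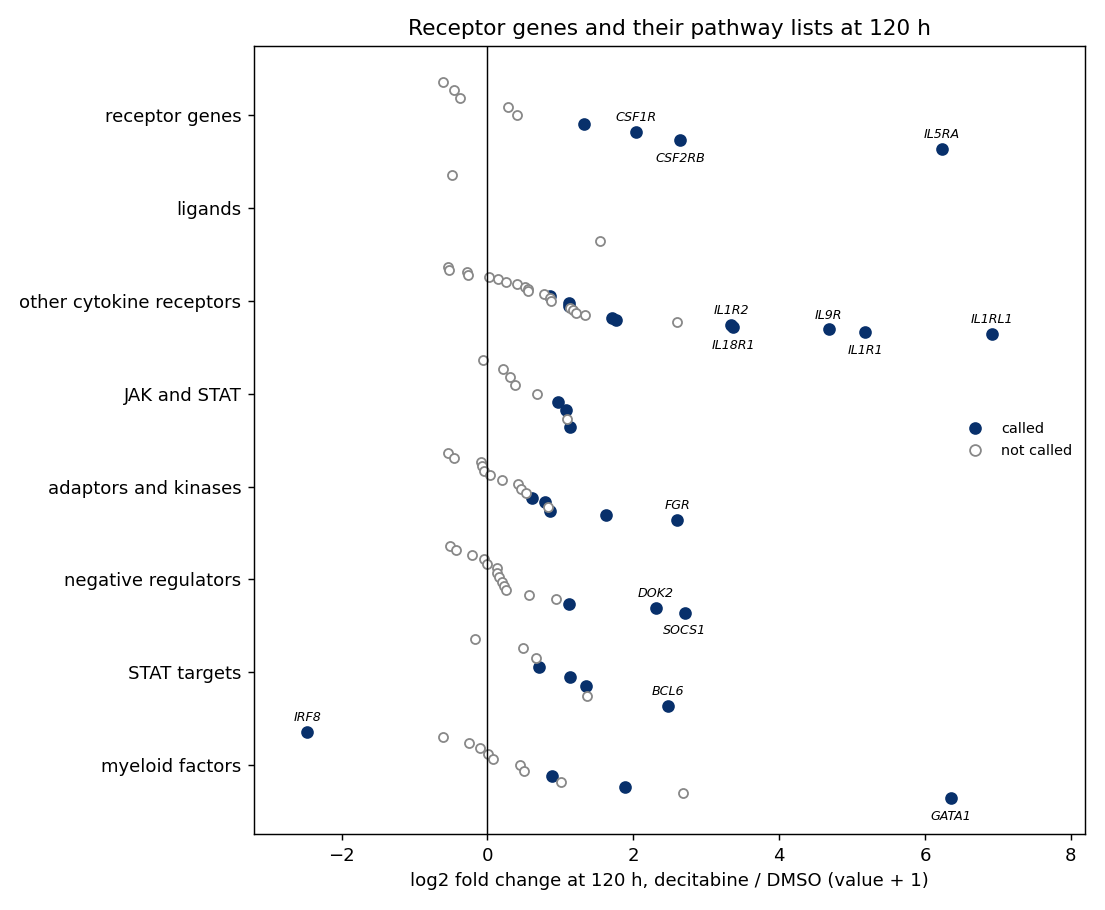
Log2 fold change of value plus 1 at 120 h, decitabine against DMSO, of every tested gene in the receptor set and in the lists of ligands, other cytokine receptors, JAK and STAT genes, adaptors and kinases, negative regulators, STAT targets and myeloid factors. Filled points were called and those beyond 2 are named; IL1RL1 at 6.92, GATA1 at 6.35 and IL5RA at 6.23 lie farthest to the right, and IRF8 at -2.47 to the left.

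Markers of several myeloid lineages moved with the receptors, and their part in the receptor results was not tested. Of 15 eosinophil, basophil and mast cell markers 12 were tested, and 10 were higher and 0 lower at 120 h. Their summed level was 14496 to 22753 normalised counts in DMSO libraries, 73104 and 85129 with decitabine at 72 h, and 122155 and 132568 at 120 h. Most of that sum was PRG2. The most changed were CLC, HDC, PRG3 and EPX; EPX, eosinophil peroxidase, was 83.0 and 92.5 with DMSO and 5582 and 5693 with decitabine at 120 h. Among members known from basophils and mast cells, HDC was 0 and 0.562 with DMSO and 103 and 108 with decitabine at 120 h, and CPA3 was 10.7 and 3.08 against 78.5 and 73.6. TPSB2 was at most 15.1, and FCER1A, TPSAB1 and CMA1 were under 10 in every library. Of the 12 tested markers 6 had passed the filter only through decitabine libraries of 72 and 120 h, and 5 of these were among the 10 called.

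Of 11 neutrophil markers, all tested, 6 were higher and 1 lower at 120 h. Their sum, mostly S100A8 and S100A9, was 6937 to 9872 in DMSO libraries and 38142 and 40648 with decitabine at 120 h. That sum says little of the other members, and 7 of the 11 had a positive log2 fold change. Among the rest, LTF was 29.7 and 34.0 with DMSO and 9.73 and 13.1 with decitabine at 120 h. MMP8 was 30.0 and 12.8 against 2.97 and 2.36. LTF and MMP8 were picked after their values were seen. Of 10 monocyte and macrophage markers 7 were tested, and 4 were higher and 1 lower. Their sum was 110785 to 128098 in DMSO libraries and 277182 and 279849 with decitabine at 120 h, and nearly all of it was LYZ. CD163, MRC1 and C1QA were under 10 everywhere. Without either decitabine 120 h library, 2 of these markers were higher. Of the called markers, 2 neutrophil and 1 monocyte genes had passed the filter only through late decitabine libraries. Of 9 erythroid and megakaryocyte markers 2 were tested and 1 was higher. That was ITGA2B, an integrin chain of megakaryocytes, at 14.5 and 21.4 with DMSO and 352 and 346 with decitabine at 120 h, while HBA1, HBB, ALAS2, PF4 and PPBP were listed at 0 in all libraries. Of 6 lymphoid markers 3 were tested and 2 were higher. One was CD3D, which passed the filter in the same way, at 0 and 0.587 with DMSO and 142 and 108 with decitabine at 120 h, while CD3E and MS4A1 were under 10 everywhere. Of 6 stromal, epithelial and endothelial markers 3 were tested and 1, PECAM1, was higher. The lymphoid sum was 61.6 to 84.3 in DMSO libraries and 366 and 441 with decitabine at 120 h. The stromal, epithelial and endothelial sum was 461 to 669 in DMSO libraries and 1824 and 1895 with decitabine at 120 h. Nearly all of it was PECAM1, at 448 and 502 with DMSO and 1804 and 1875 with decitabine at 120 h. KRT18 was 0 and 5.24 against 6.95 and 10.6, and KRT8 was 10.3 and 10.7 against 12.6 and 8.19. COL1A1, COL1A2 and EPCAM were under 10 everywhere.

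**Figure D4:**
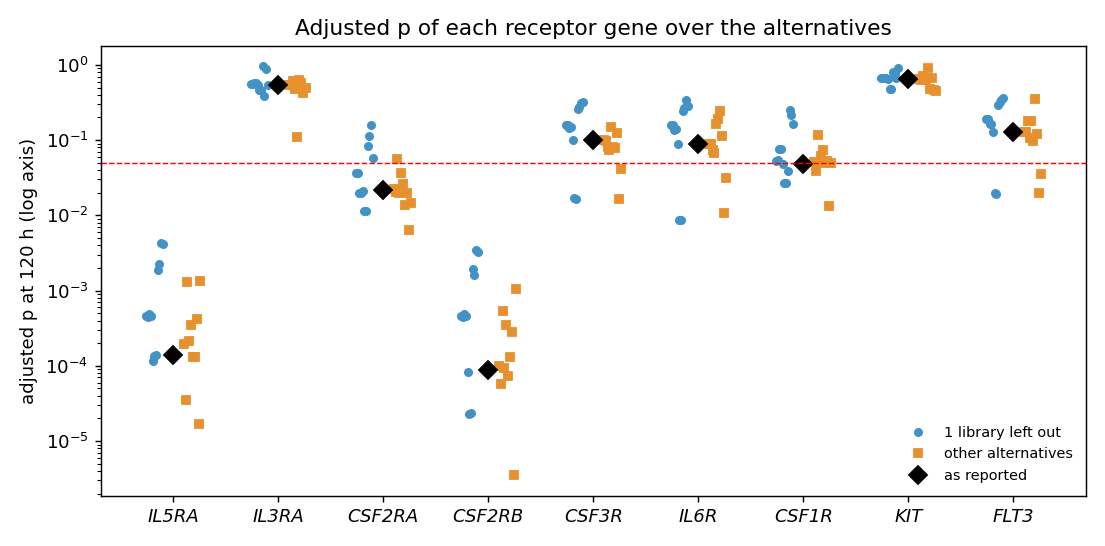
Adjusted p from limma (vertical log axis) at 120 h for each receptor, as reported (diamond), with 1 library left out (circles) and under the other alternatives (squares), with the threshold of 0.05 as a dashed line. IL5RA and CSF2RB lie under the line in all 21 alternatives, CSF2RA in 16 and CSF1R in 7.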

How the data were processed

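Stranded RNA-seq libraries of HL-60 cells were described by 1 deposited table. Its values are a normalised signal as the authors deposited them, and how they were scaled was not established. Per the submitters' processing notes, the tools were STAR, featureCounts, Salmon 1.2.1, limma and DESeq2 and the build hg38, without saying what each did. Their annotation release was not given in the sources used here. A heading names 12 libraries over 11 value columns, per the file headers, and was read as starting at the symbol. In that reading libraries of a group differed by 0.299 (mean of median absolute log2 differences) and libraries of different groups by 0.439, against 0.429 and 0.426 when it is read from the identifier. Every result rests on this reading, and DMSO 72 h replicate 2 was not analysed here. Low values were whole multiples of a library's step (within 0.01) in 59.4 to 65.5% of cases. Whole reads were therefore not recovered, and genes were not tested with a count model. Only the intervals of the IL5RA ratios at 72 h used counts, which were rounded estimates. All estimated counts and depths assume that the step is worth 1 count. Normalised totals were 12815698 to 15959030 per library.

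Values were taken as log2(value + 1), so fold changes of low genes are understated. A gene was tested if 2 or more libraries reached 10. Means of the 6 groups were fitted to all 11 libraries with limma 3.58.1 (eBayes with a trend) in R 4.3.3, with 5 residual degrees of freedom and 8.42 in all. Benjamini-Hochberg adjustment of the two-sided p-values ran over all tested genes, and a call needed an adjusted p under 0.05. The script was tested on simulated data. Intervals are at 95%. The binomial count intervals of IL5RA used scipy 1.17.1 and plots matplotlib 3.10.9. Promoters are RefSeq sequences on GRCh38.p14, and gene positions are from GENCODE 29. Replicate numbers did not pair the samples: replicate differences of DMSO and decitabine correlated by 0.0257 at 6 h and 0.0258 at 120 h, and could not be compared at 72 h.

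The receptors and the lists were chosen with earlier results of these data known. All receptors were named, and of each other list up to 4 called genes a direction with the largest change at 120 h, with the ligands, IL6ST, JAK1, JAK2, STAT3, STAT5A and STAT5B, and the 3 closest genes of each receptor. Some genes of these lists are not reported here. Alternatives were other pseudocounts, filters, scalings and variance estimates, a replicate block, all DMSO libraries as the 72 h control, and each library left out.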

Additional observations from a re-analysis of the deposited data

Results flagged for a closer look

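The decitabine effect on 2 receptors differed between times by the interaction terms of the limma model. The 6 h samples preceded the doses of 24 and 48 h, so time and number of doses cannot be told apart here. For IL5RA the effect at 72 h exceeded that at 6 h by 6.70 on the log2(value + 1) scale (adjusted p = 0.0128), and the effect at 120 h exceeded that at 6 h by 6.26 (adjusted p = 0.0020). IL5RA was 4.05 and 8.19 normalised counts in the decitabine libraries of 6 h, among the DMSO libraries of that time, and at least 218 in each later one. It passed the filter only through these later libraries. For CSF2RB the effect at 120 h exceeded that at 6 h by 2.58 (adjusted p = 0.00148). Both differences at 120 h stayed called under all 20 alternatives, whereas that of IL5RA at 72 h was not called when decitabine 6 h replicate 1 or either decitabine 120 h library was left out. No group had the 4 samples needed to look for a single library apart from the rest.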

How the results depend on the processing

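IL5RA and CSF2RB were called higher at 120 h under all 21 alternatives, with log2 fold changes of 5.78 to 6.61 and 2.59 to 2.76. At 6 h, where no receptor was called, directions were not stable: IL5RA was -0.03 as reported, 0.013 after quantile normalisation, 0.017 with equal library totals and -0.50 to 0.44 with 1 library left out. With 1 library left out, the 6 h log2 fold change was -0.68 to 0.15 for IL3RA, -0.32 to 0.45 for CSF2RA, -0.22 to 0.88 for CSF1R and -0.093 to 0.14 for FLT3. CSF3R at 72 h became -0.035 with equal totals and KIT at 120 h -0.076 after quantile normalisation.

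Counts of called genes depended on the spread. At 6 h the count of 0 became 3 without a trend, 1 with the spread of that time only and 0 to 3 with a library left out. At 72 h the 353 genes became 215 with the replicate block, 80 with sample weights, 0 with the spread of that time only, 2236 against all DMSO libraries and 137 to 4756 with a library left out. The 4756 came without decitabine 72 h replicate 1. The 1 receptor called there became 2 with a pseudocount of 5, the filter of 50 or quantile normalisation, 0 with the spread of that time only, 4 against all DMSO libraries and 1 to 5 with a library left out. At 120 h the 2570 genes became 5031 with sample weights, 4252 with the spread of that time only and 789 to 4940 with a library left out. The 4 receptors became 2 without a filter, 7 with sample weights, 7 with the spread of that time only and 2 to 7 with a library left out. For the difference between 120 and 6 h, 953 genes became 589 without a filter, 3021 with sample weights and 225 to 3005 with a library left out. For that between 72 and 6 h, the 1 receptor became 0 to 3. For that between 120 and 72 h, the 0 genes became 6 without a filter, 1 without a trend and 0 to 2915 with a library left out, with 0 to 1 receptors. Between decitabine at 120 and 72 h, the 1 receptor became 0 without a trend, with equal totals, with the replicate block or with sample weights, and 0 to 2 with a library left out. The cause was not tested.

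The replicate block changed the calls of CSF1R at 120 h and of CSF2RB between decitabine times, and no other receptor call. Replicate differences of DMSO and decitabine were nearly uncorrelated (r = 0.0257 and 0.0258), which cannot exclude a weak pairing. Without DMSO 72 h replicate 1 no 72 h comparison can be given, and IL3RA was not tested under the filter of 50. With 2 libraries a group, 1 DMSO library at 72 h and estimated counts under 30 for IL3RA, small changes could not be detected.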
